A study of Mus musculus with 5 samples.

Results

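The 9 genes described here code for the 3 D-type cyclins (Ccnd1, Ccnd2, Ccnd3), for the kinase they activate (Cdk4) and for 5 inhibitors of cyclin-dependent kinases (Cdkn1a, Cdkn1b, Cdkn1c, Cdkn2b, Cdkn2c). They were taken by gene symbol from the 28001 features of the count tables, each symbol matched 1 feature, and all 9 had UMIs (unique molecular identifiers, counted mRNA molecules). Levels are UMIs summed over the cells of a library and a cell class and scaled to all UMIs of those cells (CPM), and shares are the cells with at least 1 UMI of the gene.

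The study followed tdTomato-labelled mesenchymal progenitors of whole mouse hindlimb muscle as the muscle regenerated after injury with the snake toxin notexin. Cells were sorted by flow cytometry and their polyadenylated RNA was counted with the droplet-based 10x Chromium 3' v2 kit, with 1 library from quiescent muscle and 1 each from 1, 2, 4 and 14 days after notexin. All 5 libraries came from C57BL/6J mice of the genotype Hic1CreERT2/CreERT2;Rosa26LSLtdTomato/+, given tamoxifen at 8 weeks of age, 2.5 mg daily in 100 uL of sunflower oil over 5 days, followed by a washout of 10 days. The quiescent library thus shares the tamoxifen treatment with the injured ones. The label is driven from the Hic1 locus and both Hic1 alleles carry CreERT2, so every group holds that change. How many animals went into a library is not given. With 1 library per time point no test between days can be made, and the 95% intervals below (exact conditional binomial for ratios, Clopper-Pearson for shares) cover counting error only.

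After filtering (at least 500 genes, at most 10% mitochondrial UMIs) 17085 of 17213 barcodes remained, from 2138 (quiescent) to 4816 cells (day 1), and the libraries held from 8043771 (quiescent) up to 44552329 UMIs (day 1). Cells with at least 5 summed UMIs of Tnmd, Fmod, Kera and Chad were taken as tenocytes, the fibroblasts of tendon (126, 183, 99, 182 and 804 cells in the quiescent, day 1, 2, 4 and 14 libraries). Cells with at least 5 of Rgs5, Kcnj8, Abcc9 and Higd1b were taken as mural cells, the contractile cells around small vessels (112, 97, 42, 114 and 243 cells). The rest numbered 1900, 4536, 2407, 3810 and 2424, and 6 cells that met both limits were left out. Markers outside these rules were read as a check. Of the tendon genes, Scx was at 6.92 to 121 CPM and Mkx at 50.5 to 164 in tenocytes, against at most 0.562 and 1.70 in the rest, and Thbs4 at 2607 to 9153 against 56.0 to 257. Of the mural genes, Mcam was at 198 to 402 CPM and Notch3 at 165 to 569 in mural cells, against at most 3.09 and 11.4 in the rest. The progenitor genes Pdgfra, Dcn, Col1a1, Ly6a and Cd34 summed to 9625 to 29910 CPM in the rest. There, summed immune markers were at most 9.58 CPM, endothelial markers at most 30.5, myogenic markers 17.9 to 40.6 and Schwann cell markers 2.39 to 93.5, highest at day 14 (26.1 before injury), and the part of such cells in the values below was not tested. Depth differed between libraries, the median rest cell holding 3883, 8787.5, 11165, 7071.5 and 4937.5 UMIs in time order, and 306 cells (1.79%) had a barcode that occurred in more than 1 library.

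In textbook terms, D cyclins are made in response to growth signals, bind Cdk4 or Cdk6, and the active kinase phosphorylates the retinoblastoma protein so that E2F factors can switch on the genes of DNA replication. Inhibitors of the CIP/KIP family (p21 from Cdkn1a, p27 from Cdkn1b, p57 from Cdkn1c) bind cyclin and kinase together and hold back Cdk2 in particular, whereas those of the INK4 family (p15 from Cdkn2b, p18 from Cdkn2c) bind Cdk4 and Cdk6 and keep D cyclins off. Resting fibroblasts and stem cells of many tissues carry CIP/KIP inhibitors, and muscle injury brings the resident mesenchymal progenitors into division.

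Among the rest cells, Ccnd1 and Cdk4 were higher and Cdkn1b and Cdkn1c lower at days 1 and 2 than in the quiescent library. By day 4 Ccnd1 was 1.18-fold and Cdkn1b 1.20-fold under quiescent, and by day 14 none of the 9 genes differed by 2-fold. Counts of higher and lower genes take those that differed at least 2-fold in CPM, with 20 CPM or more on the higher side. At day 1, 2 of the 9 members were higher, where 15.5% of 6045 genes were, and 2 were lower, where 24.3% were. At day 2, 2 members were higher against 11.3% of all genes, and 3 (Cdkn1a, Cdkn1b, Cdkn1c) were lower against 17.4%. At day 4 no member was higher (6.34% of all genes) and Cdkn1c was lower (9.92%), and at day 14 no member was higher or lower (1.04% and 0.643%). With 9 members these shares lie near the background and are no result about the set, so the size of each gene's change is given below.

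**Figure D1:**
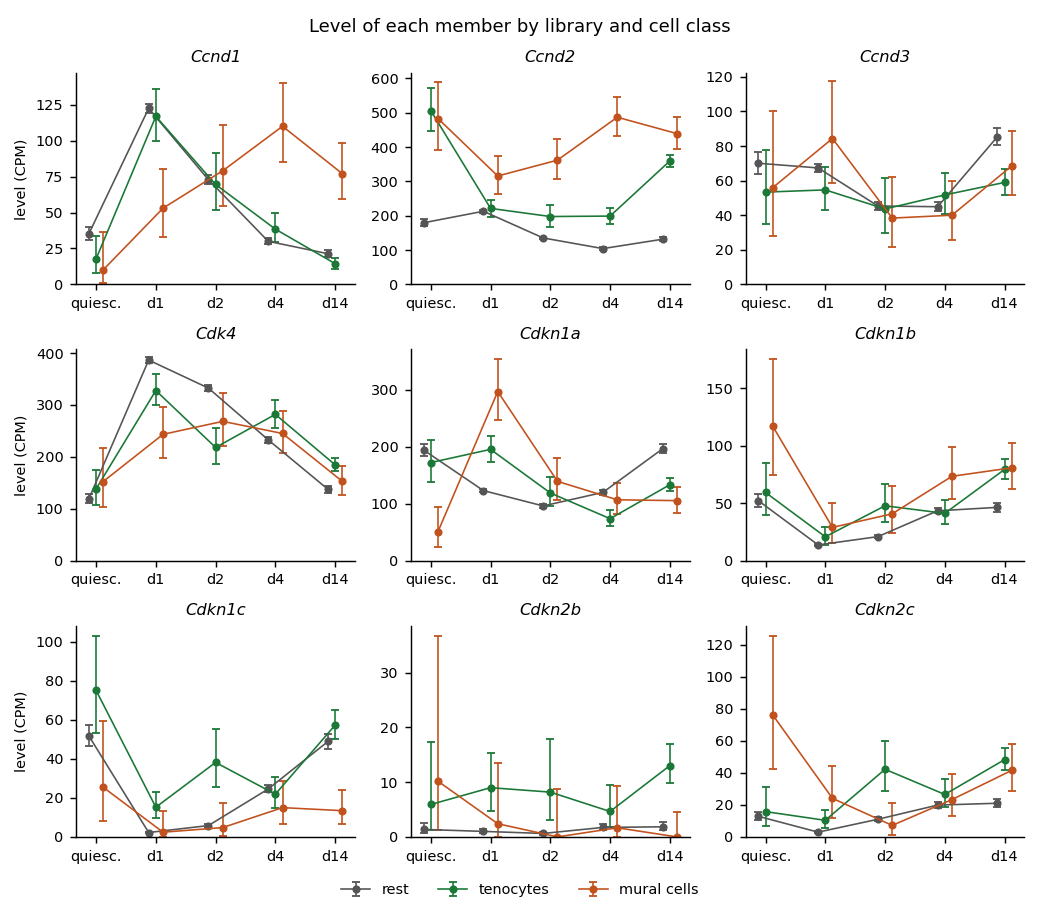
Levels of the 9 genes (y axis, CPM, from 0 and scaled to each gene's panel) in the 5 libraries in time order (x axis), for rest cells, tenocytes and mural cells; each point is the sum over the cells of 1 library and class, and bars are 95% counting intervals. In the rest, Ccnd1 and Cdk4 peak at day 1 at 122 and 386 CPM, while Cdkn1c has its lowest point there at 2.25 CPM.

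Ccnd1 codes for cyclin D1, the D cyclin usually most responsive to growth factors (chr7:144929931-144939925, minus strand, GRCm38). In the rest it stood at 35.3 CPM before injury and at 122, 72.9, 30.0 and 21.4 CPM on days 1, 2, 4 and 14. Day 1 was the highest and day 14 the lowest, and days 4 and 14 both lay under quiescent. Against quiescent the ratio was 3.47 at day 1 (95% interval 3.06 to 3.95), 2.06 at day 2 (1.81 to 2.36), 0.850 on day 4 (0.739 to 0.980) and 0.605 on day 14 (0.508 to 0.721). Day 4 was 2.43-fold under day 2 (2.25 to 2.63). Cells with a Ccnd1 UMI made up 10.1, 44.1, 34.5, 16.2 and 8.17% of the rest in time order. After every cell was thinned to 2000 UMIs (which left 1667 of the quiescent and 2193 of the day 14 cells, and all others) the shares were 5.70, 16.9, 9.56, 5.20 and 3.92%, in the same order.

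The day 2 value of Ccnd1 depended on which cells were counted. Among cells of 4000 to 8000 UMIs, a window chosen after the data were seen, day 1 remained above quiescent (94.2 against 38.7 CPM, ratio 2.43, 2.06 to 2.89) but day 2 was below it (27.9 CPM, ratio 0.722). Without the cells that held Mki67, Birc5 or Top2a UMIs, the day 2 ratio of Ccnd1 was 1.28. Depth moved with the time points, and its part in the day 2 value beyond this window was not tested.

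Ccnd2, coding for cyclin D2 (chr6:127125162-127152193, minus strand), was the D cyclin with most UMIs in every library and class. In the rest it measured 179.5 CPM before injury and 213, 135, 104 and 132 CPM on days 1, 2, 4 and 14. Only day 1 lay above quiescent, by 1.19-fold (1.12 to 1.26), and day 4 was lowest, 1.72-fold (1.61 to 1.84) under quiescent. This day 1 direction did not hold in rest cells of 4000 to 8000 UMIs. There Ccnd2 was 165 CPM at day 1 and 186 before injury (ratio 0.888, 0.813 to 0.970). Ccnd2 was found in 41.5, 67.0, 62.9, 43.8 and 39.0% of all rest cells, and in 26.0, 29.2, 21.9, 17.5 and 20.2% after thinning.

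Ccnd3, coding for cyclin D3 (chr17:47505051-47599691, plus strand), stood at 70.0 CPM in quiescent rest cells and at 67.3, 45.3, 44.9 and 85.4 CPM on the 4 days after injury. It had its low at days 2 and 4, and its highest level at day 14, where Ccnd1 had its lowest. The interval at day 1 included 1 (ratio 0.961, 0.875 to 1.06). The Ccnd3 level at day 14 was 1.90-fold that of day 4 (1.75 to 2.06) and 1.22-fold (1.10 to 1.36) over quiescent.

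Because mRNA is counted at its 3' end, whatever its length, the make-up of the D cyclin UMIs can be compared between libraries. Whether mRNA of the 3 genes is captured equally well was not tested, so these are shares of UMIs. In the rest, Ccnd1 made up 12.4% of D cyclin UMIs before injury (11.0 to 13.9), 30.4% at day 1 (29.7 to 31.1), 28.7% on day 2, 16.7% on day 4 and 8.96% on day 14 (7.96 to 10.0). Ccnd2 held between 52.9 and 63.0% throughout, and Ccnd3 went from 24.6% in quiescent cells to 16.7% at day 1 and 35.8% at day 14. The 3 genes together measured 285, 403, 254, 179 and 238 CPM in time order, so the total was highest at day 1. At day 14 Ccnd1 and Ccnd2 (55.2 against 63.0%) had smaller shares than before injury and Ccnd3 a larger one. In tenocytes Ccnd2 made up 87.7% of D cyclin UMIs before injury and 56.3% at day 1, and in mural cells 88.0 and 69.7%.

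**Figure D2:**
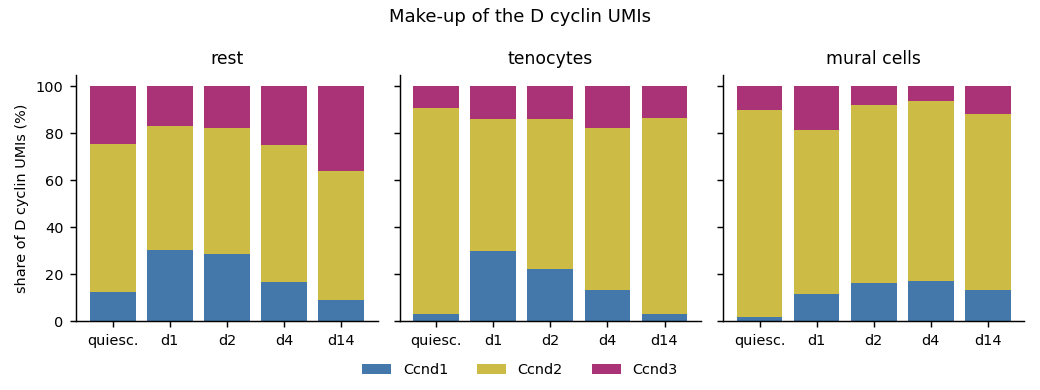
Stacked bars of the share of D cyclin UMIs (y axis, percent) from Ccnd1, Ccnd2 and Ccnd3 in each library (x axis), with separate panels for rest cells, tenocytes and mural cells and no error bars. Ccnd1 makes up 12.4% of D cyclin UMIs in quiescent rest cells, 30.4% at day 1 and 8.96% at day 14.

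Cdk4, the catalytic partner of the D cyclins (chr10:127063534-127067920, plus strand), measured 119 CPM in quiescent rest cells, and 386, 333, 233 and 137 CPM in time order after injury. All 4 injured libraries were above quiescent, and the level came down from day to day after day 1. The ratio to quiescent was 3.24 on day 1 (3.03 to 3.47), 2.79 on day 2 (2.60 to 2.99), 1.95 on day 4 (1.82 to 2.10) and 1.15 on day 14 (1.06 to 1.25). Among cells of 4000 to 8000 UMIs it was 2.62, 1.40 and 1.57 on days 1, 2 and 4, each interval above 1. A Cdk4 UMI was seen in 35.8% of quiescent and 84.9% of day 1 cells, or 21.3 and 49.0% after thinning.

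The promoters of Cdk4 and Cdkn1b are shown, as these are the members with a RefSeq entry that counted as higher (Cdk4) and lower (Cdkn1b) at day 1. Each is the 250 bases before the transcription start from RefSeq (GRCm38.p6), where 6 of the 9 members had an entry, with Cdk4 at chr10:127063285-127063534 and Cdkn1b at chr6:134920151-134920400, both read on the plus strand. Capitals mark the E-box CACGTG in Cdk4, the letters bound by Myc with Max among other factors, and the GC box GGGCGG in Cdkn1b, searched on both strands.
Cdk4: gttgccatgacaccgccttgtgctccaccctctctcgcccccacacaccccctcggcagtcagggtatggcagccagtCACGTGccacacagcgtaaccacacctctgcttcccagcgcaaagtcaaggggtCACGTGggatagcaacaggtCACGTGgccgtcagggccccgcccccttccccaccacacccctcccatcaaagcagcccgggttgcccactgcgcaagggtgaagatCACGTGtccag
Cdkn1b: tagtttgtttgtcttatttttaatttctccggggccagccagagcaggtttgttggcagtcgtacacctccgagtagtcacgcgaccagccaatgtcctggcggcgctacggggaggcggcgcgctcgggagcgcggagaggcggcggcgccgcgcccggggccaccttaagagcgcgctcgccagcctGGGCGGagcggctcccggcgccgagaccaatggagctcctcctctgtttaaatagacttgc
The Cdk4 window held 4 E-boxes. Of 32851 RefSeq windows of the same length 6.02% held at least 1 E-box and 7 windows (0.0213%) at least 4. The GC box of Cdkn1b is a common feature, present in 32.7% of windows. The Cdk4 window held 1 GC box as well, left in small letters above, and the Cdkn1b window held no E-box. The E2F motifs TTTCCCGC, TTTCGCGC and TTTGGCGC were in 1.53% of all windows and the FoxO motif TGTTTAC in 3.17%. Neither kind was in the Cdk4 or Cdkn1b windows, which says only that these letters are not there.

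Of the CIP/KIP inhibitors, Cdkn1a codes for p21, a target of p53 (chr17:29090976-29100727, plus strand). In the rest it measured 194 CPM before injury and 123, 95.9, 119.6 and 196 CPM on days 1, 2, 4 and 14. The quiescent and day 14 libraries were the high ones and agreed within counting error (ratio 1.01, 0.947 to 1.08). It was 1.58-fold lower than quiescent at day 1 (1.49 to 1.67), 2.02-fold at day 2 (1.90 to 2.15) and 1.62-fold at day 4 (1.52 to 1.72). The direction at day 2 did not hold in cells of 4000 to 8000 UMIs, where Cdkn1a was 227 CPM at day 2 and 190.1 in the quiescent library (ratio 1.20, 1.09 to 1.31), and the day 1 ratio there was 0.927 (0.851 to 1.01). A Cdkn1a UMI was seen in 34.7, 45.2, 44.7, 33.6 and 35.8% of cells, and in 23.6, 20.3, 18.1, 18.5 and 22.5% after thinning. The dissociation stress genes are a list of immediate early and heat shock genes that cell isolation can induce. Of these, 6 of 12 were lower at day 1 and 7 at days 2 and 4, where 24.3, 17.4 and 9.92% of all genes were. None of the list was higher or lower at day 14, and the part of these genes in the Cdkn1a level was not tested.

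Cdkn1b, coding for p27 (chr6:134920401-134925513, plus strand), measured 52.1 CPM in quiescent rest cells, with 13.7 CPM on day 1, 20.9 on day 2, 43.3 on day 4 and 46.3 on day 14. Its low was at day 1, and days 4 and 14 lay close to quiescent. It was 3.81-fold lower at day 1 (3.34 to 4.34) and 1.20-fold lower at day 4 (1.07 to 1.35), and its interval at day 14 included 1. Among cells of 4000 to 8000 UMIs its ratio to quiescent was 0.460 at day 1 (0.376 to 0.564) and 0.715 at day 2 (0.574 to 0.889), so that at day 2 it was within 2-fold. Cdkn1b at day 4 was 2.08-fold above day 2 (1.89 to 2.28). The share of cells with a UMI was 17.5% in the quiescent and 11.6% in the day 1 library, and 10.1 against 3.20% after thinning.

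Cdkn1c, coding for p57 from an imprinted locus (chr7:143458339-143461050, minus strand), had the widest range of the 9 genes. It stood at 51.7 CPM in quiescent rest cells and then, in time order, at 2.25, 5.81, 24.6 and 48.9 CPM. Each library after day 1 was above the one before it, and the day 14 level was within counting error of quiescent (1.06-fold lower, 0.928 to 1.20). Cdkn1c was 23.0-fold lower than quiescent at day 1 (18.3 to 29.1), 8.89-fold at day 2 (7.44 to 10.7) and 2.11-fold at day 4 (1.86 to 2.39). Day 4 was 4.22-fold above day 2 (3.59 to 4.99) and day 14 was 1.99-fold above day 4 (1.79 to 2.22). Cells with a UMI went from 12.7 to 1.90% between the quiescent and day 1 libraries, and from 7.80 to 0.617% after thinning. In cells of 4000 to 8000 UMIs Cdkn1c was 42.8 CPM before injury, 3.02 CPM at day 1 (ratio 0.0706, 0.0445 to 0.107) and 11.3 CPM at day 2 (ratio 0.263), and the day 4 ratio was 0.832 (0.694 to 1.00).

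Of the INK4 inhibitors, Cdkn2c, coding for p18 (chr4:109660876-109667189, minus strand), measured 12.9 CPM in quiescent rest cells, 2.98 on day 1, 11.0 on day 2, 19.9 on day 4 and 21.04 on day 14. Day 1 was low, 4.32-fold under quiescent (3.27 to 5.69), and days 4 and 14 were 1.55-fold (1.24 to 1.94) and 1.64-fold (1.29 to 2.09) above it. Neither library of the day 1 comparison reached 20 CPM, so this difference was outside the counts above. Cdkn2b, coding for p15 (chr4:89306299-89311039, minus strand), stayed between 0.632 and 1.85 CPM in the rest, from 10 to 52 UMIs a library, and its intervals against quiescent all included 1.

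**Figure D3:**
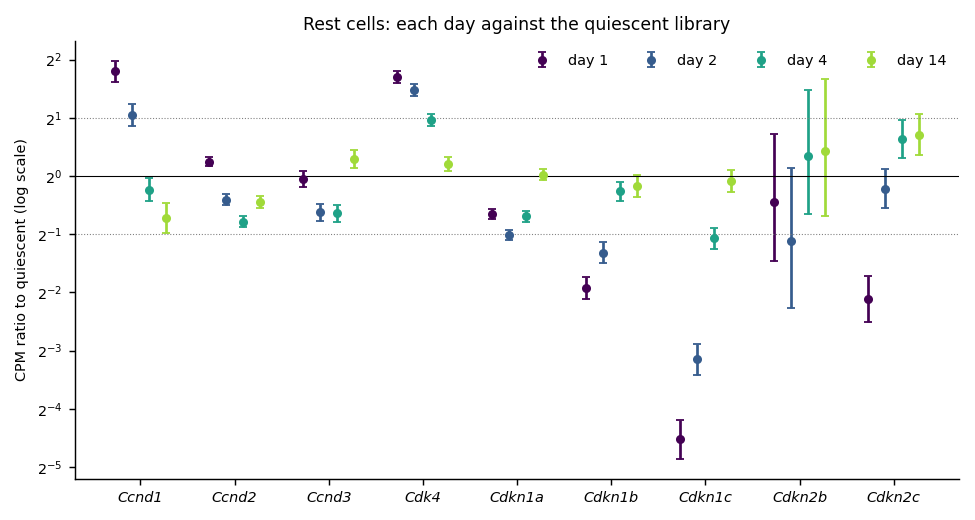
CPM ratio to the quiescent library in rest cells (y axis, log scale, dotted lines at 2-fold) for each of the 9 genes at days 1, 2, 4 and 14, with 95% counting intervals. Cdkn1c lies lowest at day 1 (23.0-fold lower) and Ccnd1 and Cdk4 highest (3.47 and 3.24).

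Counted from each library to the next by the same limits of 2-fold and 20 CPM, no member was higher or lower from day 1 to day 2, where 9.68 and 8% of all genes were. Below 20 CPM, Cdkn1c was 2.59-fold (2.01 to 3.34) and Cdkn2c 3.71-fold (3.02 to 4.58) higher at day 2 than at day 1. From day 2 to day 4, Cdkn1b and Cdkn1c were higher (6.93% of all genes) and Ccnd1 was lower (3.77%). From day 4 to day 14 none was higher or lower (8.01 and 5.36% of all genes), the nearest being Cdkn1c at 1.99-fold and Ccnd3 at 1.90-fold.

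The scale matters for the size of these ratios. CPM puts the median gene of the rest 0.34 lower at day 1 than in quiescent cells on the log2 scale, and TMM factors raise all log2 ratios by 0.56, 0.26, 0.13 and 0.02 on days 1, 2, 4 and 14. With TMM 1961 genes were higher and 708 lower at day 1, against 935 and 1470 on CPM. On the TMM scale Ccnd1 was 5.07 and Cdk4 4.74 times its quiescent level at day 1. Cdkn1b was at 0.384 and Cdkn1c at 0.0636 of it, so that all 4 kept their direction. The other members at day 1 were Ccnd2 at 1.73, Ccnd3 at 1.41, Cdkn1a at 0.926, Cdkn2b at 1.08 and Cdkn2c at 0.338. Ccnd3 and Cdkn2b thus moved from below to above quiescent, and Cdkn1a came close to it. At day 2 Cdkn1a was at 0.587, no longer 2-fold lower.

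The other genes of the pathway, from lists chosen with earlier results of these data known, can be set beside the members. Of the G1/S machinery (kinases, cyclins E and A, pocket proteins, E2F factors and Myc), 5 of 9 genes that reached 20 CPM were higher and 1 lower at day 1, and 2 of 8 higher at day 2, with none higher or lower at days 4 and 14. Of all genes 15.5% were higher and 24.3% lower at day 1, and 11.3% higher at day 2. Ccnh, the cyclin of the Cdk-activating kinase, was 2.37-fold higher at day 1, Cks1b, a small subunit that helps p27 be degraded, was at 255 CPM against 119.8 before injury (2.13-fold), and Myc at 149 against 72.6 (2.06-fold). Cdkn2d, coding for the INK4 inhibitor p19, was 2.22-fold lower (22.4 against 49.5 CPM). The median log2 ratio of the list was 0.51 at day 1, where that of all genes was -0.34.

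Replication genes were higher from day 1, as Ccnd1 and Cdk4 were, and mitosis genes from day 2. Of S phase genes that reached 20 CPM, 13 of 14 were at least 2-fold higher at day 1 and 16 of 17 at day 2. The shares of all genes were 15.5 and 11.3%. Mcm5, part of the replicative helicase, was 31.6-fold higher at day 1 and Rrm2, a subunit of ribonucleotide reductase, 50.2-fold at day 2. At most 3 S phase genes reached 20 CPM before injury. Of the 20 G2/M genes none reached 20 CPM before injury or at day 1, whereas 18 did at day 2 and 11 at day 4, all higher. Most genes of both lists thus entered these counts through the library where they were high, so the counts carry little weight. Over all 20 genes of a list, the median log2 ratio was 1.98 for S phase at day 1 (-0.34 for all genes). It was 4.20 for G2/M at day 2 (-0.19 for all genes), with Birc5 73.6-fold higher. At day 14 no gene of either list was higher or lower.

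Of the genes tied to quiescence and FoxO factors, 11 of 14 were lower at day 1, 7 of 14 at day 2, 7 of 15 on day 4 and 1 of 14 on day 14, and none higher, where 24.3, 17.4, 9.92 and 0.643% of all genes were lower. Txnip, a thioredoxin inhibitor under FoxO control, was 7.76-fold lower at day 1, Gas1, a growth arrest gene, 7.70-fold, and Hes1, a Notch target, 9.51-fold at day 1 and still 4.29-fold at day 14 (17.9 against 76.9 CPM). Hes1 was the gene of this list that was still lower at day 14, where Cdkn1c and Cdkn1b had intervals that included the quiescent level. Of the p53 list 3 of 8 were higher at day 1 and none lower, where 15.5 and 24.3% of all genes were. The 3 were Trp53 itself (2.50-fold), Bax (3.02-fold) and Aen (5.39-fold), while Plk2 was 1.61-fold lower. Below 20 CPM, Trp53inp1 was 8.76-fold and Sesn1 3.40-fold lower. The median log2 ratio of the list was -0.26 over the 15 genes of at least 5 CPM, near the -0.34 of all genes.

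Cdkn2c and Ccnd2 were higher in tenocytes than in the rest, tested over the 5 libraries with the library as a block (edgeR's quasi-likelihood test with Benjamini-Hochberg adjustment over 11250 genes, 7.81% of which were higher and 7.92% lower). Cdkn2b also passed, but it met the low-count filter through the tenocytes alone and is described below with the test that had no filter. No member was lower, nor was any at an unadjusted p below 0.05 or with DESeq2, while 5, Cdkn2b among them, were higher at an unadjusted p below 0.05. The progenitor markers summed to 15637 to 35392 CPM in tenocytes.

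In tenocytes Ccnd2 measured 506 CPM before injury and 221, 198, 199 and 359 CPM on days 1, 2, 4 and 14. The quiescent and day 14 libraries were the high ones, and the tenocyte level was 2.82, 1.04, 1.46, 1.91 and 2.73 times that of the rest of the same library. Over the 5 libraries the log2 difference of Ccnd2 was 0.92 (SE 0.21, edgeR adjusted p = 0.015), and it did not pass without the quiescent library (adjusted p = 0.060) or with a class limit of 3 UMIs (adjusted p = 0.057). Within tenocytes Ccnd2 was 2.29-fold lower at day 1 than before injury (1.93 to 2.70), where over all rest cells it was 1.19-fold higher. In rest cells of 4000 to 8000 UMIs Ccnd2 was lower at day 1 as well (ratio 0.888, 0.813 to 0.970). Thinned to 2000 UMIs, 59.3% of quiescent and 28.4% of day 1 tenocytes had a Ccnd2 UMI.

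Cdkn2b, near absent from the rest, was counted in tenocytes of every library, with 3, 13, 6, 7 and 55 UMIs (5.93, 8.99, 8.18, 4.64 and 13.0 CPM). All 5 values were above those of the rest, between 2.68 and 12.9 times, and in the edgeR test with no filter on low counts the log2 difference of Cdkn2b was 2.59 (SE 0.37, adjusted p = 0.00018). Cdkn2c in tenocytes measured 15.8, 10.4, 42.3, 26.5 and 48.3 CPM in time order, above the rest in all 5 libraries, by 1.23 to 3.83 times, with a log2 difference of 1.16 (SE 0.25, edgeR adjusted p = 0.013). Of the pair of INK4 inhibitors, Cdkn2c was 3.05-fold higher in tenocytes at day 14 than before injury (1.52 to 7.17).

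The remaining members did not pass the test between tenocytes and the rest. Ccnd1 in tenocytes was 17.8 CPM before injury and 117 at day 1 (6.57-fold, 3.38 to 14.6), then 69.5, 38.5 and 14.4 CPM. Day 4 was above quiescent in tenocytes and below it in the rest, and the other libraries had the same order. Cdk4 went from 138 CPM before injury to 328 at day 1 in tenocytes (2.37-fold). Cdkn1c was 75.1 CPM in quiescent tenocytes and 15.2 at day 1, 4.93-fold lower (2.84 to 8.76), and the level at day 1 was 6.77 times that of the rest. Over 5 libraries its log2 difference was 0.99 (SE 0.43, edgeR adjusted p = 0.17), and Cdkn1b had 0.55 (SE 0.18, adjusted p = 0.076). Cdkn1c passed with DESeq2 (1.19, adjusted p = 0.049), and Cdkn1b without day 4 (0.76, edgeR adjusted p = 0.024).

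Mural cells differed from the rest in Ccnd2 and Cdkn1b, which were higher, and in Cdkn1c, which was lower (10679 genes, of which 9.66% were higher and 11.9% lower, with 8 of the 9 members tested and Cdkn2b too low). Ccnd2 measured 483, 316, 362, 487 and 439 CPM in mural cells in time order, above the rest in every library, with a log2 difference of 1.24 (SE 0.23, edgeR adjusted p = 0.0022). Cdkn1b was 117, 28.9, 40.7, 73.4 and 80.7 CPM, also above the rest in each, with a log2 difference of 0.68 (SE 0.16, edgeR adjusted p = 0.0098). It too had its low at day 1, 4.04-fold under quiescent mural cells (1.93 to 8.92).

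Cdkn1c was counted with 5, 1, 2, 9 and 11 UMIs in mural cells (25.4, 2.41, 4.79, 15.0 and 13.5 CPM). It lay under the rest in 4 of 5 libraries and the log2 difference was -1.39 (SE 0.31, edgeR adjusted p = 0.0071), which rests on few UMIs and did not pass without day 14 (-0.96, adjusted p = 0.116). The median mural cell held fewer UMIs than the median rest cell in every library (1427 against 3883 in the quiescent one). Among cells of 4000 to 8000 UMIs Cdkn1b (0.35, adjusted p = 0.53) and Cdkn1c (-1.19, adjusted p = 0.057) did not pass and Ccnd1 (1.24, adjusted p = 0.00015) and Cdkn1a (-0.72, adjusted p = 0.020) did, all by the same edgeR test.

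Within mural cells Ccnd1 and Cdkn1a took another course than in the rest. Ccnd1 measured 10.2 CPM before injury (2 UMIs) and 53.02, 79.1, 110.04 and 77.1 CPM after it. Its high was at day 4, and at day 14 it was 7.58 times the quiescent level (2.01 to 63.9), an interval made wide by the 2 UMIs. Cdkn1a stood at 50.8, 296, 139, 107 and 105 CPM (10, 123, 58, 64 and 86 UMIs), with quiescent lowest and day 1 highest, 5.83-fold above it (3.07 to 12.5). Cdkn1a UMIs were seen in 6.25% of quiescent and 52.6% of day 1 mural cells, and in 14.3 and 36.1% after thinning, for which 21 of the 112 quiescent mural cells were deep enough. At day 14 the 86 UMIs came from 22 of 243 mural cells (9.05%). After thinning the day 14 share was 6.91%, below the quiescent one, so the day 14 level rested on few cells. Whether these courses differ between classes was not tested.

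Cdk6, the second kinase that D cyclins bind and a gene outside the 9, was at 76.3, 31.3, 9.59, 48.3 and 66.1 CPM in mural cells and between 0.410 and 3.26 in the rest. The log2 difference of Cdk6 was 4.24 (SE 0.52). Cdk6 met the low-count filter through its level in mural cells, the class where it is high, so no p-value is given for it. Cdk6 was at most 6.23 CPM in tenocytes. Cdk4 did not pass between mural cells and the rest (log2 difference -0.33, adjusted p = 0.22), with 153, 243, 268, 245 and 153 CPM in mural cells. Of the 20 G1/S genes tested, 2 were lower in mural cells, where 11.9% of all genes were. Cdk6 is not counted as higher, for the reason given, and no other gene of that list was higher. Of the list tied to quiescence 5 of 17 were higher and 4 lower. The muscle-lineage markers Pax7, Myod1 and Myf5 had no UMI in mural cells, in which Des alone (with Myog at day 4) gave the 117 to 533 CPM of that list.

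**Figure D4:**
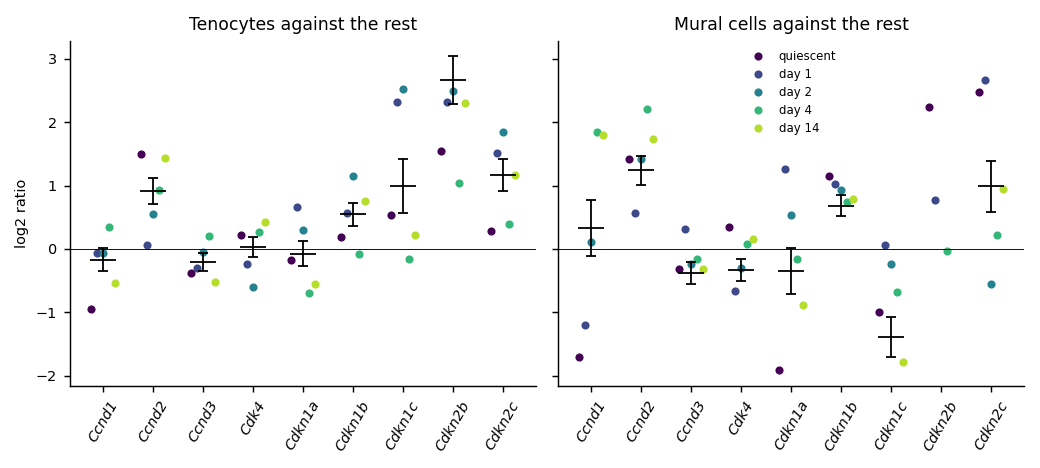
Log2 ratio of tenocytes (left) and mural cells (right) to the rest of the same library (y axis, on CPM + 1) for the 9 genes (x axis), 1 point per library, with a black bar for the edgeR estimate and its standard error; points with no UMI in a class are left out. Ccnd2 lies above the rest in all 5 libraries in both classes, and Cdkn2b does so in tenocytes.

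At day 2, 905 of the 2407 rest cells held a UMI of Mki67, Birc5 or Top2a, genes of dividing cells, and 1502 did not. The cells with these UMIs had more Ccnd1 and Cdk4 and less Cdkn1a, Cdkn1c and Cdkn2c. Ccnd1 was at 96.7 CPM in the cells with and 45.1 in those without (ratio 2.15, 1.96 to 2.35), and Cdk4 at 423 and 226 (1.87, 1.79 to 1.95). Cdkn1a was 68.1 against 128 CPM (1.89-fold lower, 1.75 to 2.03), Cdkn1c 2.58 against 9.59 (3.71-fold lower, 2.63 to 5.33) and Cdkn2c 7.34 against 15.3 (2.09-fold lower, 1.67 to 2.62). Ccnd2 (133 against 138), Ccnd3 (42.4 against 48.7) and Cdkn1b (18.3 against 23.9) differed by 1.30-fold at most. By the limits of 2-fold and 20 CPM 1 member, Ccnd1, was higher, as were 6.19% of all genes, and none lower (4.28%).

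Cells with a division UMI were also deeper, with a median of 17709 UMIs against 8403. In the cells with and without them Ccnd1 was seen in 50.9 and 24.6%, or 14.0 and 6.86% after thinning, Cdk4 in 96.2 and 73.2%, or 51.7 and 32.1%, and Cdkn1a in 43.5 and 45.3%, or 12.8 and 21.2%. Among cells of 8000 to 15000 UMIs (255 with and 570 without), a window chosen after seeing the data, the Ccnd1 ratio was 1.14 (0.938 to 1.39) and its interval included 1. In that window Cdk4 stayed higher (307 against 218 CPM, 1.41, 1.30 to 1.54) and Cdkn1a (1.29-fold, 1.13 to 1.48), Cdkn1c (2.40-fold, 1.36 to 4.503) and Cdkn2c (2.51-fold) stayed lower. Ccnd2 was lower there as well, 94.0 against 134 CPM (1.43-fold, 1.25 to 1.64).

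Depth and level moved together at day 2 with or without division UMIs. In cells without them, split into 4 depth groups of equal cell number (median 4456.5, 6859.5, 10111 and 16336 UMIs), Ccnd1 was 20.4, 28.7, 47.3 and 56.9 CPM and Cdk4 144, 165, 211 and 283. Cdkn1a went the other way, 224, 216, 138 and 61.3 CPM, as did Cdkn1b, 38.5, 29.8, 24.6 and 17.2. In the quiescent library the 4 depth groups held 196, 214, 165 and 203 CPM of Cdkn1a with no such order. At day 4 Cdkn1a was again lower in deeper cells, going from 279 to 209, 104 and 50.01 CPM. These are values of cells from 1 library each and carry no test.

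**Figure D5:**
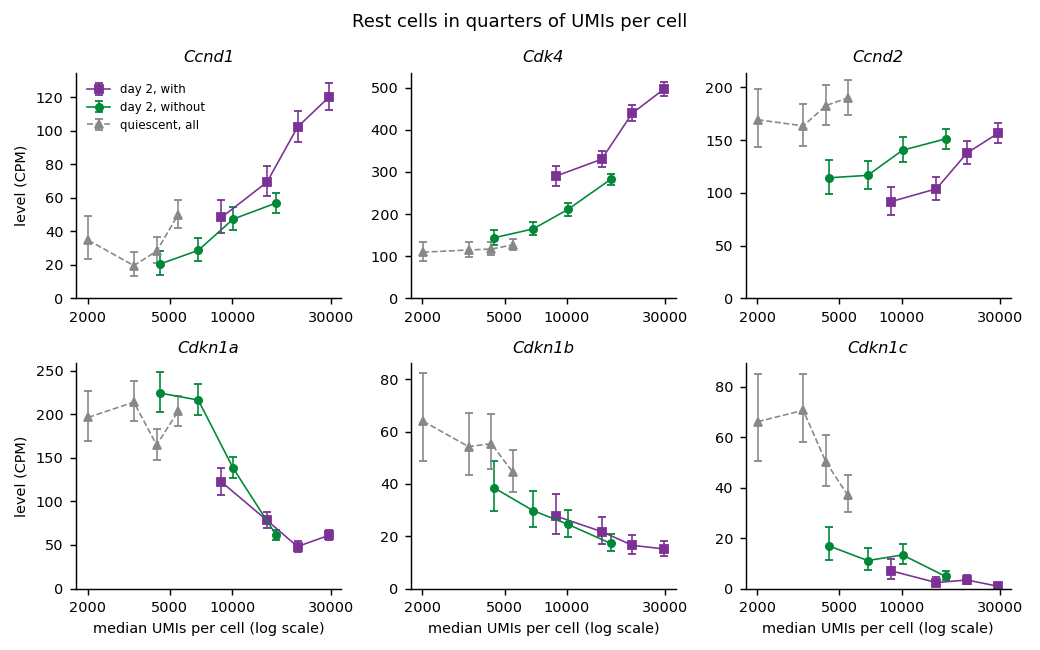
Levels (y axis, CPM) of 6 member genes in day 2 rest cells with and without Mki67, Birc5 or Top2a UMIs, and in all quiescent rest cells, each split into 4 groups of equal cell number by depth (x axis, median UMIs per cell, log scale); bars are 95% counting intervals. In the cells without these UMIs Ccnd1 goes from 20.4 to 56.9 CPM and Cdkn1a from 224 to 61.3 CPM from the shallowest to the deepest group.

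The same split was made on days 1 and 4. At day 1 (175 cells with, 4361 without) Ccnd1 was 174 against 119 CPM (1.46, 1.32 to 1.61), Ccnd3 100.1 against 65.4 (1.53) and Cdk4 499 against 379.8 (1.31), and no member was higher or lower by the limits of 2-fold and 20 CPM (2.58 and 0.866% of all genes). At day 4 (390 with, 3420 without) Ccnd1 was 25.4 against 30.9 CPM, so lower in the cells with division UMIs, Cdk4 302 against 219 (1.38) and Cdkn1a 76.1 against 128 (1.68-fold lower). Cdkn1c was 11.7 against 27.0 CPM at day 4 (2.31-fold lower, 1.76 to 3.09), the only member past 2-fold with 20 CPM or more there (4.61% of all genes higher, 3.09% lower). Cdkn2b had 26 UMIs in each group at day 4, or 5.33 and 1.03 CPM, a ratio of 5.16 (2.88 to 9.26) at levels under the 20 CPM limit. Among day 4 cells of 8000 to 15000 UMIs Cdkn1a was instead higher in the cells with division UMIs, 94.8 against 64.3 CPM (1.47, 1.26 to 1.72), and Cdkn1c was 18.4 against 22.0 CPM with an interval that included 1 (ratio 0.837, 0.586 to 1.17).

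Tested over days 1, 2 and 4 with the library as a block, 1 member passed: Cdkn1c was lower in the cells with division UMIs, with a log2 difference of -1.496 (SE 0.23, edgeR's quasi-likelihood test with Benjamini-Hochberg adjustment, adjusted p = 0.014, of 12344 genes 3.07% higher and 1.25% lower). No member was higher, 1 was higher and 3 lower at an unadjusted p below 0.05, and DESeq2 called 0 higher and 1 lower. Cdk4 had a log2 difference of 0.56 (SE 0.14, adjusted p = 0.088), Cdkn1a -0.61 (SE 0.19, adjusted p = 0.14) and Cdkn2c -0.75 (SE 0.23, adjusted p = 0.13). The Cdkn1c difference did not pass among cells of 8000 to 15000 UMIs (-0.64, adjusted p = 0.42) or without day 2 (-1.17, adjusted p = 0.145). Without day 1 Cdk4 (0.68, adjusted p = 0.0074) and Cdkn2b (1.70, adjusted p = 0.035) passed as higher, and Cdkn1a (-0.84, adjusted p = 0.0014) and Cdkn2c (-0.87, adjusted p = 0.0043) as lower. Of the G1/S list 7 of 28 tested genes were higher and none lower (median log2 difference 0.69), and all 20 S phase genes were higher.

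Resting cells were not uniform in the inhibitors. Quiescent rest cells were sorted by sets of genes that mark subsets of muscle progenitors (at least 5 summed UMIs of 1 set and of no other). UMIs of a set were summed, so a cell need not hold every gene of it. Of the 1900 cells, 864 met no set, 207 more than 1, and 10 a set of Dmkn, Sbsn and Krtdap. The cells of no set had Cdkn1c at 58.3 CPM and Cdkn1a at 231. Cells with Hsd11b1 and Cxcl14 (316) had Cdkn1c at 74.7 CPM (60.3 to 91.6), those with Stmn4 and Pi16 (468) at 27.1 (20.4 to 35.4), and those with Clu and Gdf10 (35) at 212 (142 to 305). Cdkn1a ran otherwise, 117 CPM (99.1 to 138), 189 (171 to 210) and 227 (154 to 322) in the same order. Cells with Clu and Gdf10 also had less Ccnd2, 87.9 CPM (45.4 to 154), than those with Hsd11b1 and Cxcl14 (195).

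At day 14 the first pair of subsets had the same order. There 839 rest cells met no set and 355 more than 1. Cdkn1c was 79.6 CPM (66.8 to 94.0) in 325 cells with Hsd11b1 and Cxcl14 and 32.1 (27.2 to 37.6) in 860 with Stmn4 and Pi16, close to their quiescent values, and Cdkn1a was 124 and 183. Ccnd1 was 4.04 CPM (7 UMIs) in the first and 29.0 in the second, against 26.5 and 36.2 before injury. In the 37 cells with Clu and Gdf10 at day 14 Cdkn1c was 17.2 CPM, from 3 UMIs (3.55 to 50.3), where it had been highest before injury, and Cdkn1a was 309.9 CPM (233 to 404).

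The genes whose course over the 5 libraries of rest cells lay nearest to each member were ranked by the root mean square difference in centred log2(CPM + 1), among 6198 genes of at least 20 CPM in some library. Nearest to Ccnd1 were Psph, Gemin6 and Socs5 (0.16, 0.17 and 0.18), and nearest to Cdk4 were Fscn1, Nudcd1 and Tnfaip6 (0.04, 0.04 and 0.08). For Ccnd2 they were Rem1, Nfkb1 and Prkar2a, and for Ccnd3 Aspscr1, Card19 and Ptdss2, of which Aspscr1 was within 0.04. Cdkn1a was nearest to Pcgf3, Osr1 and Usf2 (0.06 each) and Cdkn1b to Serinc5, Marveld1 and Chd3 (0.09 each). Cdkn1c, with the largest change, had more distant neighbours, Col15a1 (0.14), Itih5 (0.18) and Clec3b (0.23). Cdkn2c was nearest to Sesn3, Angptl2 and Fn1 (0.15, 0.15 and 0.17). With 5 points a gene, a small distance describes these libraries only.

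Some members share exon bases with a gene on the opposite strand, and whether counting used strand is not given in the sources used here, so reads from such pairs may not be told apart. Bysl, which overlaps Ccnd3, went from 10.9 CPM in quiescent rest cells to 66.3 at day 1 and 12.9 at day 14, a course that Ccnd3 did not share (70.0, 67.3 and 85.4). Tspan31, which overlaps Cdk4, was 80.4, 119, 133, 147 and 79.2 CPM, and Oraov1, which overlaps Ccnd1, lay between 7.29 and 13.3. Antisense genes at Ccnd2 and Cdkn1c had at most 3.15 CPM.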

How the data were processed

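For each of the 5 libraries the authors deposited a matrix of raw UMI counts, made with Cell Ranger and mm10 per the submitters' processing notes; the version is not given in the sources used here. Raw counts were summed per library and class after keeping cells with at least 500 genes and at most 10% mitochondrial UMIs. Classes used a limit of 5 summed UMIs. The total ran from 8043771 to 44552329 UMIs a library. The 9 members and all gene lists were chosen with earlier results of these data known. Genes named beside the members were, per list and comparison, at most 4 of largest log2 ratio (prior 1 CPM) that reached 20 CPM on the higher side, and the 3 nearest genes of each member. Cdk6, Gas1 and Bysl, Tspan31 and Oraov1 are given for the class, list and overlap they belong to. Trp53inp1 and Sesn1, of the p53 list and below 20 CPM, were named outside this rule. Ratios between libraries have exact conditional binomial 95% intervals. Class and division comparisons used edgeR 4.0.16 (R 4.3.3; quasi-likelihood, TMM, library as block, Benjamini-Hochberg, threshold 0.05), with DESeq2 1.42.0 as an alternative. P-values over libraries treat different time points as replicates of the class difference. Scrublet, in scanpy 1.11.5, called 13 of 17085 cells (0.0761%), too few to have worked, so no doublets were removed; an alternative removed 507. Other alternatives changed scaling, filters, class limits, depth and libraries left out. On simulated counts with 200 changed genes edgeR found 57% of 2-fold and 93% of 4-fold changes for tenocytes (10976 genes), 38 and 80% for mural cells (10290) and 55 and 92% for the division split (12146); of the genes called, 7.98, 5.6 and 9.26% were false, above the 5% aimed at. Shares are of cells thinned to 2000 UMIs and unthinned; no class is known to lack these genes, so free RNA was not set apart. Tables were handled with Python 3.11.15, numpy 2.4.6, scipy 1.17.1 and pandas 2.3.3.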

Additional observations from a re-analysis of the deposited data

Results flagged for a closer look

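Members whose ratio to the quiescent library lay above 1 in one cell class and below 1 in another, each with a 95% counting interval that left out 1, are listed here; with 1 library per time point the difference was not tested. Ccnd1 at day 4 was 2.16 times its quiescent level in tenocytes and 10.8 times in mural cells, but 0.850 in the rest, and at day 14 it was 7.58 in mural cells and 0.605 in the rest. Ccnd2 at day 1 was 1.19 in the rest, 0.437 in tenocytes and 0.654 in mural cells. The Ccnd2 ratio in the rest was below 1 in cells of 4000 to 8000 UMIs (0.888, 0.813 to 0.970). Cdkn1a in mural cells was 5.83, 2.73, 2.10 and 2.07 on days 1, 2, 4 and 14, the last from UMIs of 22 of 243 cells. In the rest Cdkn1a was 0.634, 0.495 and 0.617 at days 1, 2 and 4, and in tenocytes 0.690, 0.428 and 0.774 at days 2, 4 and 14. Cdkn2c at day 2 was 2.67 in tenocytes and 0.0943 in mural cells, and at day 4 it was 1.55 in the rest and 0.306 in mural cells. Quiescent mural cells gave 2 UMIs of Ccnd1, 10 of Cdkn1a and 15 of Cdkn2c, and quiescent tenocytes 9 of Ccnd1 and 8 of Cdkn2c. These few UMIs set the width of those ratios. The Cdkn2c interval at day 2 was 1.20 to 6.73 in tenocytes and, from 3 UMIs at day 2, 0.0175 to 0.333 in mural cells. For Ccnd1 at day 4 in tenocytes it was 1.06 to 4.96.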

How the results depend on the processing

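Of the member ratios against quiescent recomputed under the alternatives, 511 stayed within their counting interval and 99 moved outside it. Another 2, of members counted as higher or lower, changed direction. For members not so counted, changes of direction were not set apart and are among the 511 and 99. An example is Ccnd2 at day 1, at 1.19 and, in cells of 4000 to 8000 UMIs, 0.888. Of the member tests 296 kept direction and side of the threshold, 13 lost it, 12 gained it and 19 changed direction. Cells of 4000 to 8000 UMIs and of 8000 to 15000 UMIs, and rest cells without other cell types' markers in the class tests, were chosen after seeing the data. The 2 reversed ratios, both in cells of 4000 to 8000 UMIs at day 2, were Ccnd1 (0.722) and Cdkn1a (1.20). Counts of members against quiescent: at day 2 the number higher was 1 with the mean of per-cell CPM, with cells of at least 3647 UMIs and with cells thinned to 2000 UMIs, and 0 without the division cells and at 4000 to 8000 UMIs, where 1 was lower. At day 4, 1 was higher with TMM, with DESeq2 factors and with a 1.5-fold limit; with that limit 4 were lower, and 0 were lower with TMM, DESeq2 factors, at least 3647 UMIs, thinning, 4000 to 8000 UMIs, and without division cells or cells with other types' markers. At day 14 the 1.5-fold limit gave 1 higher and 1 lower, and 4000 to 8000 UMIs 1 lower. From day 1 to 2, 2 were higher at a limit of 5 CPM and 1 lower with TMM, DESeq2 factors or without division cells; from day 2 to 4, 1 was higher with each of those and 0 lower without division cells. In the class tests, without the library block 1 member was higher in tenocytes, 1 higher and 0 lower in mural cells; leaving out 1 library gave 0 to 1 lower in mural cells. For the division split, leaving out 1 library gave 0 to 2 higher and 0 to 3 lower, and 0 were lower at 8000 to 15000 UMIs and at 11165 UMIs or more. Log2 differences that changed sign, none past the threshold in the changed setting: in tenocytes Ccnd1 0.068 at a limit of 3 UMIs, Cdk4 -0.048 with no low count filter and -0.062 with no block, Cdk4 -0.068 to 0.18 and Cdkn1a -0.21 to 0.12 leaving out 1 library; in mural cells Ccnd1 -0.14 to 0.81 leaving out 1 library; in the split Ccnd3 -0.013 with other mitotic genes, -0.25 thinned and -0.12 to 0.26 leaving out 1 library, Cdkn1a 0.059 at 8000 to 15000 and 0.092 at 11165 UMIs or more, Cdkn1b 0.046, 0.17 and, leaving out 1 library, -0.22 to 0.068, Ccnd2 -0.13 to 0.055 and Cdkn2b -0.12 to 1.70. The cause was not tested. Depth limits mural cells most, where 3 UMIs of a gene come to 15.3 CPM in the quiescent library, against 0.410 CPM in the rest. No paired analysis was possible between time points because each has 1 library; the class and division tests compare classes within a library.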
